A study of Mus musculus with 5 samples.

Results

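The 33 genes described here carry out fat cell differentiation (adipogenesis) and the storage of triglyceride in lipid droplets. They were matched by gene name to a list of regulators, droplet coat proteins, fatty acid uptake and synthesis enzymes, lipases and secreted adipocyte products. All 33 had a probe on the array (41 probes on 59 spots), and all 33 were among the 26086 genes and unnamed features tested, of 36399 in all. Their levels were read in cells sorted from muscle of mdx mice (labelled DMD/MDX, strain C57BL/6), which lack functional dystrophin and model Duchenne muscular dystrophy. The mice had been injected intraperitoneally for 45 days with vehicle or with 0.6 mg/kg trichostatin A (TSA), which inhibits histone deacetylases. Interstitial cells were gated as positive for CD34, α7-integrin and Sca1 and are called Sca1+ cells. Muscle stem cells (MuSC) were gated on the same first 2 proteins and lacked Sca1. There were 2 arrays of Sca1+ cells with vehicle, 2 of Sca1+ cells with TSA and 1 of MuSC with vehicle. Every group thus carried the mdx mutation, and neither healthy muscle nor TSA-treated MuSC was analysed here. The labels used here give no age and no number of mice per sort. Whether the replicates are different animals is also not stated there, and the p-values therefore describe the spread between these arrays, which may be technical.

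As background, a committed precursor becomes a fat cell when the early factors C/EBPβ and C/EBPδ induce PPARγ and C/EBPα, which then sustain each other and switch on the genes of lipid uptake, synthesis and storage. Stored triglyceride sits in droplets coated by perilipins and CIDE proteins, and lipases release its fatty acids when the coat allows. In skeletal muscle, interstitial mesenchymal progenitors can form fat cells, and muscle fibres hold small droplets of their own for oxidation.

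Levels are log2 of the processed signal relative to the 75th percentile of the same array, so 0 is that percentile and each unit is a doubling. A level belongs to 1 probe, and differences are read between arrays and not between genes. The marker sums below add signals of different probes, so the brightest probes weigh most in them. Between 58.49% and 66.90% of the spots on an array passed the well above background flag, no spot was saturated, and replicate arrays correlated at 0.987 (vehicle) and 0.989 (TSA). Of the genes of the 3 gate proteins, Itga7, which encodes α7-integrin, stood at 1.35 and 1.09 in vehicle Sca1+ cells, 4.53 and 4.59 in TSA Sca1+ cells and 7.02 in MuSC. Ly6a, which encodes Sca1, stood at 6.46 and 6.59, 5.89 and 5.71, and 1.46 in the same order. In limma Itga7 was called higher with TSA (adjusted p = 0.0054), while Ly6a (0.115) and Cd34 (−0.72, adjusted p = 0.114) were not called. In MuSC all 3 were called, Itga7 higher and Ly6a and Cd34 lower.

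Markers of other cell types moved along with the groups. In TSA Sca1+ cells 5 of 7 satellite cell markers, 6 of 8 myofibre markers, 5 of 7 smooth muscle and pericyte markers, 4 of 5 mast cell markers and 3 of 3 red cell markers were called higher, and 1 of 8 fibroadipogenic progenitor markers lower. Their summed signals, in multiples of the 75th percentile, went from 12.1 and 12.5 with vehicle to 40.0 and 41.3 with TSA for satellite cells, from 2.98 and 3.39 to 20.6 and 24.3 for myofibres, and from 58.9 and 65.0 to 550.1 and 597 for smooth muscle. They went from 0.633 and 0.664 to 25.6 and 27.8 for mast cells, and from 43.8 and 44.5 to 693 and 739 for red cells. The progenitor sum was 2387 and 3476 with vehicle, 1377 and 1446 with TSA and 224 in MuSC. Of the first markers of these lists, Pax7 differed by 3.07 with TSA, Ckm by 2.56, Myh11 by 5.74, Cpa3 by 6.89, Alas2 by 4.41 and Pdgfra by −0.80, the last with an adjusted p of 0.121 in limma. In MuSC all 7 satellite cell, 7 of 8 myofibre and 6 of 7 smooth muscle markers were called higher and all 8 progenitor markers lower. In MuSC 8 of 11 endothelial markers were called lower and 1 higher, and 2 of 3 red cell, 1 of 5 mast cell and 1 of 9 macrophage markers lower, with 1 macrophage marker higher. With TSA 1 of 11 endothelial markers was called higher and 0 of 9 macrophage markers either way, and Pecam1 differed by 0.73 and Cd68 by 0.57. The endothelial sum was 136 and 171 with vehicle, 206 and 216 with TSA and 72.9 in MuSC. The macrophage sum was 170 and 238 with vehicle, 125 and 129 with TSA and 83.5 in MuSC. It was lower although 6 of 9 macrophage markers lay above both vehicle arrays in each comparison, and 3 below. Itgam, the brightest of the 9, weighed most in the sum (7.19 and 7.67 with vehicle, 6.65 and 6.72 with TSA, 5.89 in MuSC). The adipocyte markers, 6 of 7 of which belong to the 33 genes, had none called with TSA, and their summed signal was 0.652 and 0.609 with vehicle, 0.560 and 0.472 with TSA and 0.356 in MuSC. Beside these marker counts, 2.71% of all genes were called higher and 0.268% lower with TSA, and 10.5% and 11.7% in MuSC. In bulk samples like these, fewer cells of a type and less RNA per cell cannot be told apart. The part of these cell type markers in the results below was not tested.

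**Figure D1:**
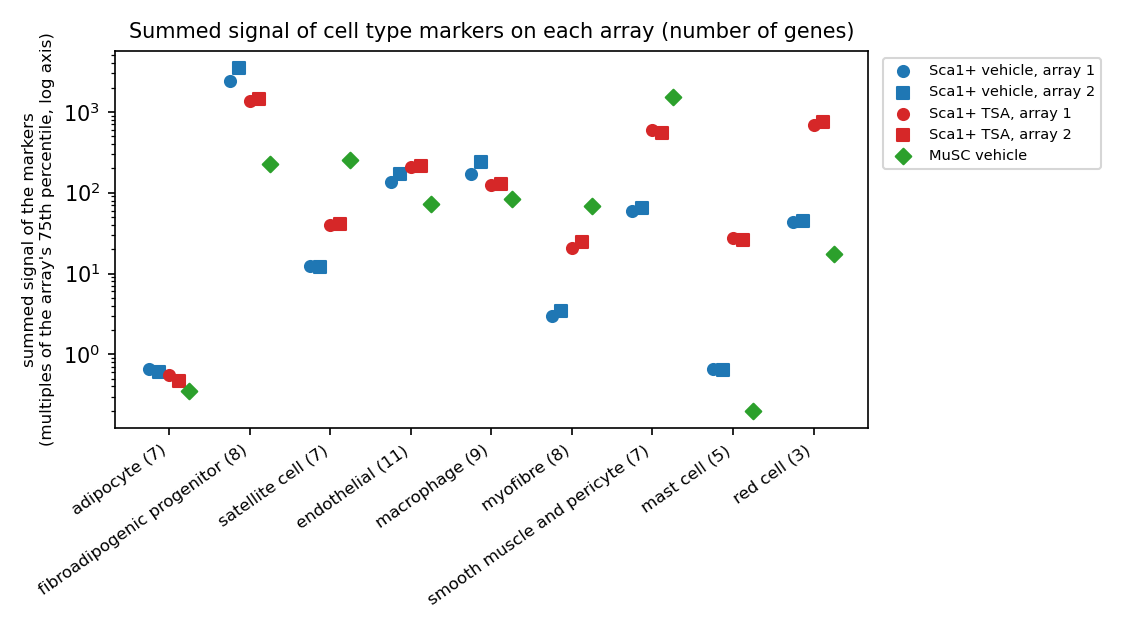
Summed signal of the markers of 9 cell types on each of the 5 arrays, in multiples of the array's 75th percentile on a log axis, with 1 point per array coloured by group. The adipocyte sum lies below 1 on every array, while the mast cell and red cell sums separate the TSA arrays from the other 3.

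With TSA, 2 of the 33 genes were called higher in Sca1+ cells and 0 lower (limma, Benjamini-Hochberg adjusted p under 0.05). Both are perilipins, Plin4 and Plin5. Of all genes tested, 2.71% were called higher and 0.268% lower. At an unadjusted p under 0.05, 7 of the 33 were higher and 3 lower. The median difference of the 33 was 0.04, beside −0.13 over all genes tested. In 13 genes both TSA arrays lay above both vehicle arrays (22.9% of all genes tested), in 9 both lay below (36.4%), and in 11 the arrays overlapped. The 31 genes not called spanned −0.94 to 1.41 with adjusted p from 0.0608 to 0.988, and with 2 arrays per group this does not show that they were unchanged. These calls did not all hold in fits without 1 of the Sca1+ arrays. Such fits leave 1 array in a group and called far fewer genes over the whole array too, so the loss does not single out these genes. With normexp background correction 5 were called higher and 6 lower, and over all genes 1258 and 5895 in place of 708 and 70.

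MuSC differed from vehicle Sca1+ cells in 13 of the 33 genes. Called higher were 7 (Plin4, Ppargc1a, Plin5, Pnpla2, Acsl1, Klf5 and Cebpb), where 10.5% of all genes were called higher, and called lower were 6 (Zfp423, Lpl, Cfd, Retn, Fabp4 and Scd1), where 11.7% of all genes were. The median difference was −0.35, beside −0.04 over all genes. The MuSC array lay above both vehicle arrays in 13 genes (39.3% of all genes), below both in 19 (44% of all genes) and between them in 1. As MuSC have 1 array, the model assumes that they vary as the Sca1+ arrays do. Both comparisons use the same vehicle arrays, so an error in those arrays enters both. Cebpb, Fabp4 and Scd1 were no longer called without any 1 of the 4 Sca1+ arrays, and Cfd without vehicle replicate 1 or 2. Fewer genes were called over the whole array in those fits too.

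**Figure D2:**
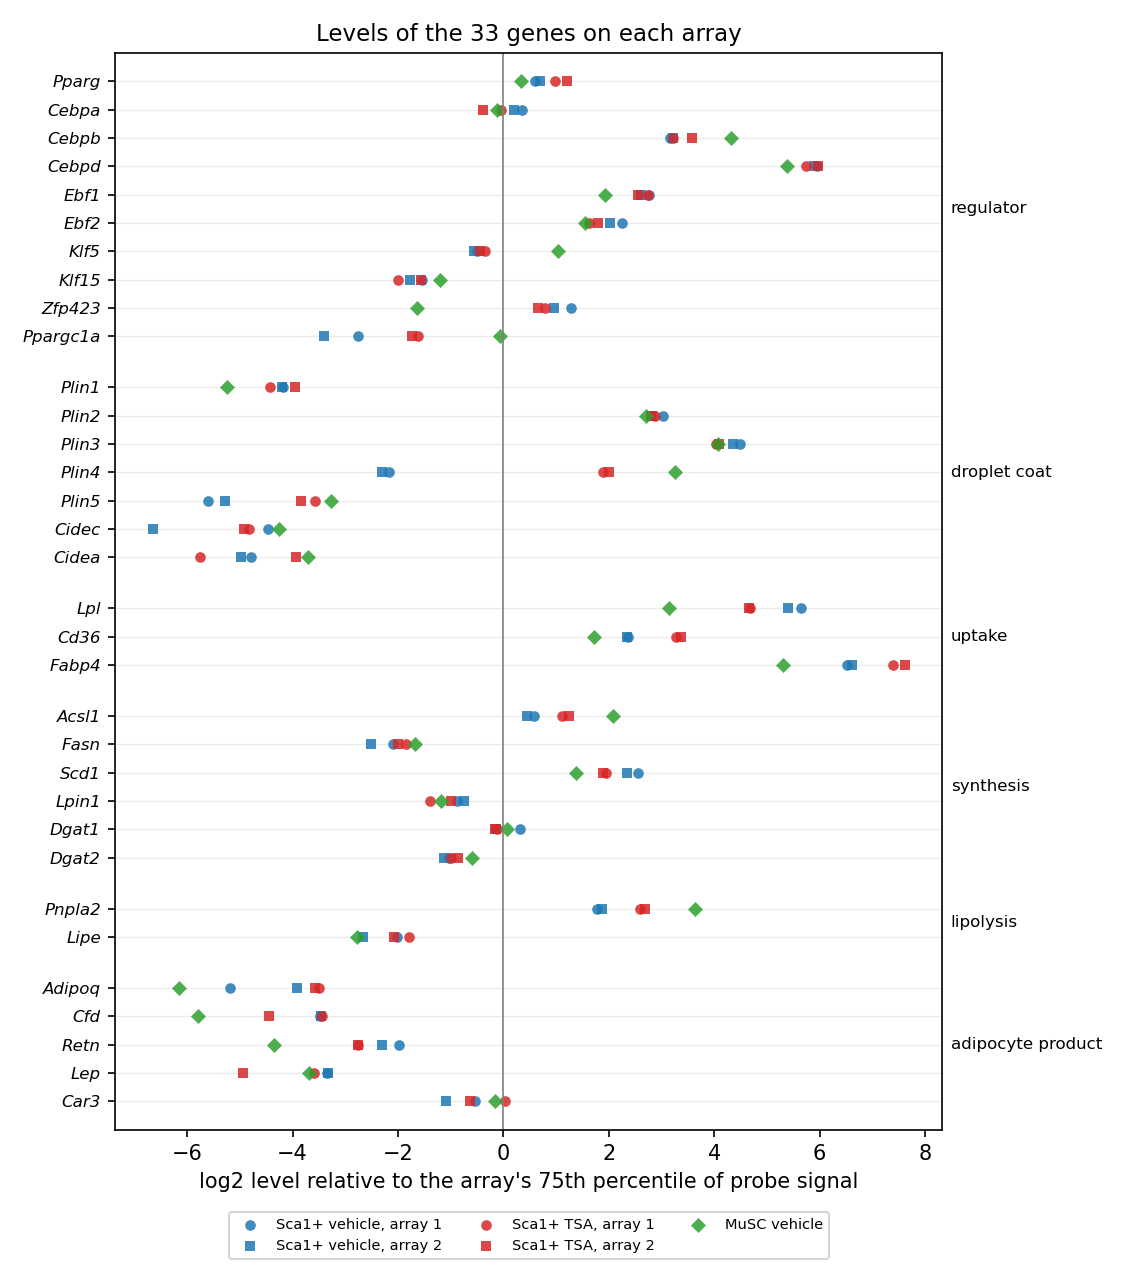
Log2 level of the 33 genes on each of the 5 arrays, relative to the array's 75th percentile (0), with 1 point per array and the genes in blocks by role. Plin4 shows the widest gap, with the vehicle arrays at −2.16 and −2.31 and the other 3 arrays at 1.89 or above.

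Plin4 encodes perilipin 4, a coat protein of small droplets that is abundant in fat and in muscle. Its probe lies at chr17:56240055-56240114 on the minus strand in mm9, the build of the array files; no gene model of that build was used here, so its place in exon or UTR is not given for any probe. Its level was −2.16 and −2.31 with vehicle, 1.89 and 2.00 with TSA and 3.26 in MuSC. The groups did not overlap: vehicle was low on both slides, TSA high and MuSC highest. With TSA it was higher by 4.18 ± 0.16 (standard error of the model), a fold of 18.2 (adjusted p = 0.0040 in limma). The difference was 4.05 on slide 1 and 4.31 on slide 2. MuSC were higher by 5.50 ± 0.19, a fold of 45.1 (adjusted p = 0.0014 in limma). Without TSA replicate 1 the TSA difference was 4.24 with an adjusted p of 0.0713, and without TSA replicate 2 it was 4.13 with 0.0710. In those settings no gene of the array passed the threshold, though 4911 and 3098 had an unadjusted p under 0.05.

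Plin5 encodes perilipin 5, which tethers droplets to mitochondria in oxidative tissues such as heart and muscle. It is the next gene to Plin4 (probe at chr17:56251025-56251084, minus strand, mm9). Its level was −5.60 and −5.28 with vehicle, where neither array had it well above background, −3.58 and −3.84 with TSA and −3.27 in MuSC. Vehicle arrays were again the lowest on both slides. The fitted TSA difference was 1.73 ± 0.20 (adjusted p = 0.0332 in limma), which amounts to at least 1.76-fold higher, and the MuSC difference was 2.16 ± 0.25 (adjusted p = 0.0086 in limma), at least 2.37-fold higher. A lower bound of this kind sets the bright group against the dimmest signal that is still well above background. Plin5 passed the filter only through groups in which it was bright. With normexp background correction the TSA difference turned to −0.40 (adjusted p = 0.166) and the MuSC difference fell to 0.10 (adjusted p = 0.843). The TSA call also failed in limma without the filter on dim probes (adjusted p = 0.0972) and with a trend in the prior variance (0.0535). It failed without each Sca1+ array in turn, where fewer genes were called over the whole array too. The difference was then 1.57 and 1.89 without vehicle replicates 1 and 2, and 1.60 and 1.86 without TSA replicates 1 and 2. The adjusted p for TSA ranged from 0.0322 to 0.189 over all 12 alternatives.

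The sequences just upstream of these neighbours are shown because they are the 2 genes of the set called higher with TSA. They are the 250 bases before the annotated start, 5′ to 3′ on the gene's strand, from RefSeq in GRCm38.p6. The Plin4 window is chr17:56109783-56110032 and the Plin5 window, that of the more distal of its starts, is chr17:56117549-56117798, both on the minus strand. Capitals mark CTATAAGG, and in Plin5 also AGGTCA.
Plin4: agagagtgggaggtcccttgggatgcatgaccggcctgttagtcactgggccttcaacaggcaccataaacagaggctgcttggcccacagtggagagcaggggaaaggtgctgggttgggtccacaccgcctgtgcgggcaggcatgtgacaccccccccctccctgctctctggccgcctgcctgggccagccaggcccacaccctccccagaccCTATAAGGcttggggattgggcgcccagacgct
Plin5: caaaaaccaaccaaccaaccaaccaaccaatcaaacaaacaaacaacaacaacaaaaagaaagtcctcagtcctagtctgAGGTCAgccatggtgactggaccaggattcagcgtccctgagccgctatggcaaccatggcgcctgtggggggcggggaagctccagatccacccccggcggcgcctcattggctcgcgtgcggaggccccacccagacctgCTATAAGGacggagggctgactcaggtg
Promoter entries matched 23 of the 33 genes, with 31 windows among 32851 in all. The TATA-like word CTATAAGG, picked after these sequences were read, begins 33 bases before the Plin4 start and 28 before the Plin5 start. It was found in 0.344% of all windows and in no other gene of the 33 with an entry. AGGTCA, the half-site that nuclear receptors such as PPARγ recognise, begins 170 bases before the more distal Plin5 start. It occurs in 14% of all windows and in 7 of the 31 windows of the listed genes (6 genes). The Plin4 window held neither AGGTCA nor the E-box CAGCTG, the MEF2 word or the C/EBP word TTGCNNAA. Those 3 words occurred in 4, 0 and 5 of the 31 windows and in 13%, 3.2% and 9.56% of all windows. Both strands were searched and no word contains another. A match describes letters and not a bound site.

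Among 16 genes around the pair, 8 on each side in the order of GRCm38.p6, only Lrg1 was called with TSA, at 3.06 ± 0.16 (adjusted p = 0.0054 in limma). Its difference was 3.11 and 3.02 without TSA replicates 1 and 2, where calls were lost over the whole array. Lrg1 lies directly beside Plin5 and encodes a secreted leucine-rich glycoprotein. The 16 spanned −0.44 to 3.06 with a median of 0.04. Over all genes, 2.71% were called higher with TSA and 0.268% lower. In MuSC Lrg1 differed by 0.64 ± 0.19 (adjusted p = 0.0907 in limma). There 3 of the 16 were called higher and 4 lower, where 10.5% and 11.7% of all genes were. Plin3, a perilipin and the outermost of the 16 on the Plin5 side, differed by −0.36 ± 0.15 with TSA (adjusted p = 0.247 in limma).

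**Figure D3:**
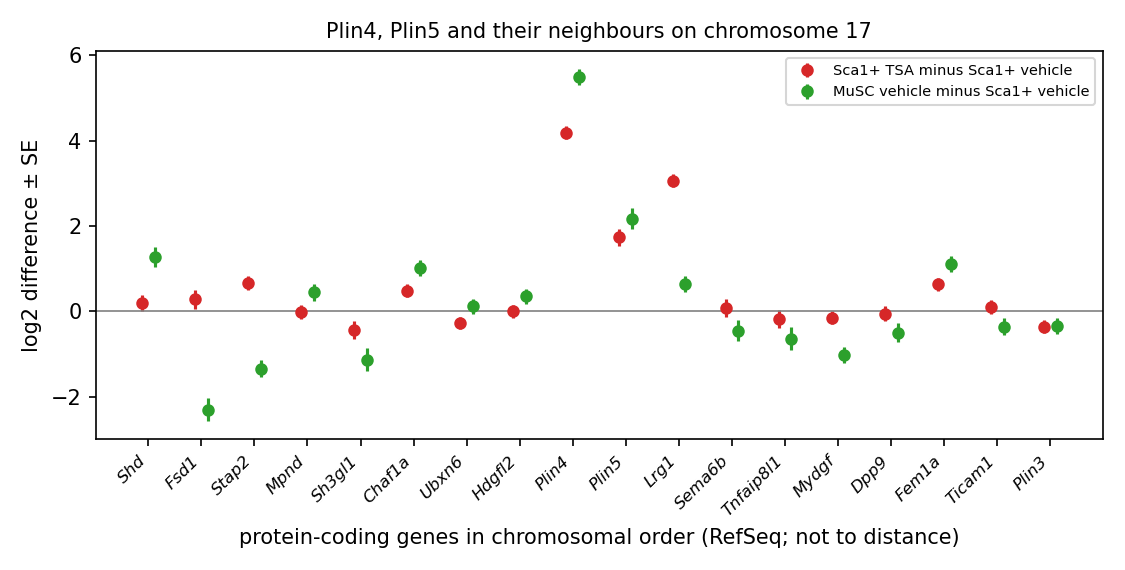
Log2 difference from vehicle Sca1+ cells for TSA Sca1+ cells and MuSC, with standard errors of the model, for Plin4, Plin5 and the genes on either side in their order along the chromosome. Plin4, Plin5 and Lrg1 are the called TSA differences, and Lrg1 alone of the 3 is not called in MuSC.

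The other coat proteins were not called in either comparison. Plin1, the perilipin that gates lipolysis in fat cells (probe at chr7:86866112-86866171, mm9), stood at −4.19 and −4.20 with vehicle, −4.43 and −3.95 with TSA and −5.25 in MuSC, where it was not well above background. TSA arrays lay on both sides of the vehicle arrays, with a difference of 0.01 ± 0.22 (adjusted p = 0.988 in limma). MuSC were lower by at least 1.42-fold, a fitted difference of −1.05 ± 0.27 (adjusted p = 0.0610 in limma). Plin2, which coats droplets in most cells, stood at 3.03 and 2.83 with vehicle, 2.87 and 2.79 with TSA and 2.71 in MuSC. The TSA arrays overlapped the vehicle arrays (−0.10 ± 0.16, adjusted p = 0.730 in limma) and the MuSC difference was −0.22 ± 0.20 (adjusted p = 0.480). Cidec and Cidea, which fuse and enlarge droplets, passed the filter through the MuSC array only. Cidec was well above background on 1 of 2 vehicle arrays and 1 of 2 TSA arrays, and Cidea on 0 of 2 and 1 of 2. Their TSA differences were 0.68 ± 0.76 and 0.04 ± 0.64. Of the 7 coat genes, Plin4 and Plin5 were thus called higher in both comparisons and none was called lower. Over all genes, 2.71% were called higher with TSA and 10.5% in MuSC.

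Of the 10 regulators of adipogenesis, none was called with TSA, with a median of −0.05. Pparg, the nuclear receptor that drives fat cell differentiation, was read on 10 spots per array (chr6:115440213-115440272, mm9). Its level was 0.61 and 0.69 with vehicle, 0.98 and 1.21 with TSA and 0.33 in MuSC, and spots of 1 array had an SD of 0.0402 to 0.0815. Both TSA arrays lay above both vehicle arrays and the MuSC array below them, but the differences of 0.45 ± 0.17 (adjusted p = 0.217) and −0.32 ± 0.20 (adjusted p = 0.338) did not pass in limma. Cebpa, which sustains the differentiated state together with Pparg, stood at 0.35 and 0.21 with vehicle, −0.04 and −0.38 with TSA and −0.12 in MuSC. Here the TSA arrays lay below both vehicle arrays, with a difference of −0.49 ± 0.19 (adjusted p = 0.226 in limma), and MuSC differed by −0.40 ± 0.23 (adjusted p = 0.296).

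The early C/EBP factors were bright on every array. Cebpb stood at 3.17 and 3.21 with vehicle, 3.23 and 3.59 with TSA and 4.31 in MuSC. MuSC lay above all 4 Sca1+ arrays, higher by 1.12 ± 0.23, a fold of 2.17 (adjusted p = 0.0366 in limma), while the TSA difference was 0.21 ± 0.19 (adjusted p = 0.515). Over the alternatives the MuSC value had an adjusted p between 0.0010 and 0.106. Cebpd differed by −0.06 ± 0.17 with TSA and −0.55 ± 0.20 in MuSC.

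Klf5 encodes a Krüppel-like factor induced early in adipogenesis and also present in other cell types. It stood at −0.51 and −0.55 with vehicle, −0.34 and −0.44 with TSA and 1.03 in MuSC. The 4 Sca1+ arrays lay close together and MuSC apart, higher by 1.56 ± 0.18, a fold of 2.95 (adjusted p = 0.0089 in limma). The TSA difference was 0.14 ± 0.15 (adjusted p = 0.586).

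Zfp423 encodes a zinc finger protein that marks committed preadipocytes and promotes Pparg expression. It stood at 1.28 and 0.96 with vehicle, 0.79 and 0.67 with TSA and −1.63 in MuSC (probe at chr8:90185710-90185769, mm9). MuSC were lowest, by −2.75 ± 0.23, or 6.74-fold (adjusted p = 0.0041 in limma), and its other 2 probes gave −1.98 and −2.27. With TSA the 3 probes differed by −0.46, −0.40 and −0.31, and the chosen probe by −0.40 ± 0.18 (adjusted p = 0.280).

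Ppargc1a encodes PGC-1α, a coactivator of PPARγ that drives mitochondrial genes in muscle and brown fat. Its level was −2.77 and −3.40 with vehicle, −1.61 and −1.73 with TSA and −0.07 in MuSC (probe at chr5:51848928-51848987, mm9). The 3 groups did not overlap. MuSC were higher by 3.02 ± 0.32, a fold of 8.09 (adjusted p = 0.0073 in limma). With TSA the difference was 1.41 ± 0.26, or 2.66-fold, 1.15 on slide 1 and 1.67 on slide 2 (adjusted p = 0.0854 in limma). It passed in 3 of 12 alternatives: at 0.0450 with slide as a replicate block, at 0.0433 with the mean of its 2 probes and at 0.0360 with a trend in the prior variance, and the adjusted p over the alternatives reached 0.335. With normexp the TSA difference fell to 0.31 (adjusted p = 0.273 in limma). Over 11 alternatives the MuSC difference ran from 1.52 to 3.33. The other Ppargc1a probe was well above background on the MuSC array only. The remaining regulators were Ebf1 and Ebf2, which mark and commit the adipocyte lineage, and Klf15. They differed by −0.04, −0.42 and −0.12 with TSA and by −0.76, −0.59 and 0.46 in MuSC, and none was called. In all, 3 regulators were called higher in MuSC and 1 lower, with a median of −0.36, where 10.5% and 11.7% of all genes were called.

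The 3 genes of fatty acid uptake had a median difference of 0.93 with TSA, with none called. In MuSC their median was −1.26, with 2 called lower, where 11.7% of all genes were. Fabp4 encodes the fatty acid carrier aP2 of fat cells, also made by capillary endothelium and macrophages. Its level was 6.53 and 6.62 with vehicle, 7.39 and 7.62 with TSA and 5.31 in MuSC (probe at chr3:10204452-10204511, mm9). TSA arrays were the highest and the MuSC array the lowest. The TSA difference was 0.93 ± 0.17, or 1.90-fold (adjusted p = 0.0819 in limma), and over 12 alternatives its adjusted p ran from 0.000742 to 0.365, with 4 under the threshold. MuSC were lower by −1.26 ± 0.20, or 2.40-fold (adjusted p = 0.0201), and this call failed in 5 of 11 alternatives, where the adjusted p rose to at most 0.0737.

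Cd36 encodes a fatty acid translocase of fat cells, muscle, capillary endothelium and macrophages. Its level was 2.36 and 2.35 with vehicle, 3.28 and 3.37 with TSA and 1.71 in MuSC (probe at chr5:17288600-17288659, mm9). The order of the groups was that of Fabp4, without overlap. With TSA it differed by 0.97 ± 0.15, or 1.96-fold (adjusted p = 0.0608 in limma, 0.000962 to 0.324 over 12 alternatives with 4 under the threshold), and in MuSC by −0.64 ± 0.18 (adjusted p = 0.0774). Beside both genes, the 11 endothelial markers had a median difference of 0.73 with TSA and −1.48 in MuSC. The 9 macrophage markers had medians of 0.57 and 0.62, though their summed signal was below vehicle in both.

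Lpl encodes lipoprotein lipase, which frees fatty acids from circulating lipoproteins. It ran the other way, at 5.65 and 5.41 with vehicle, 4.68 and 4.66 with TSA and 3.15 in MuSC (probe at chr8:71430267-71430326, mm9). Vehicle arrays were highest and MuSC lowest. The TSA difference was −0.86 ± 0.17, or 1.82-fold lower (adjusted p = 0.0906 in limma), and a second probe gave −0.99. MuSC were lower by −2.39 ± 0.20, or 5.23-fold (adjusted p = 0.0045), with −2.43 on the second probe. The 8 progenitor markers had medians of −0.92 with TSA and −4.89 in MuSC.

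None of the 6 genes of fatty acid and triglyceride synthesis was called with TSA, with a median of −0.04. Acsl1, which activates long-chain fatty acids to their CoA esters, stood at 0.57 and 0.46 with vehicle, 1.12 and 1.24 with TSA and 2.09 in MuSC (probe at chr8:47621232-47621291, mm9). The 3 groups were ordered without overlap. MuSC were higher by 1.57 ± 0.19, or 2.97-fold (adjusted p = 0.0096 in limma), and TSA by 0.66 ± 0.15 (adjusted p = 0.121), with 0.43 on a second, dimmer probe. Scd1, the desaturase that makes oleate, stood at 2.56 and 2.36 with vehicle, 1.95 and 1.89 with TSA and 1.39 in MuSC. That order was the reverse of Acsl1, with MuSC lower by −1.07 ± 0.20, or 2.10-fold (adjusted p = 0.0273, 0.0047 to 0.0796 over its alternatives), and a TSA difference of −0.54 ± 0.16 (adjusted p = 0.171). Fasn, the fatty acid synthase, Lpin1, a phosphatidate phosphatase, and Dgat1 and Dgat2, which complete triglyceride, differed by 0.38, −0.38, −0.23 and 0.15 with TSA. In MuSC the same 4 differed by 0.63, −0.37, −0.01 and 0.48, and none was called in either comparison.

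Of the 2 lipases, Pnpla2 encodes ATGL, which removes the first fatty acid from stored triglyceride. Its level was 1.77 and 1.86 with vehicle, 2.59 and 2.69 with TSA and 3.63 in MuSC (probe at chr7:148645928-148645987, mm9). The groups were again ordered without overlap. MuSC were higher by 1.81 ± 0.18, or 3.51-fold (adjusted p = 0.0067 in limma). The TSA difference was 0.82 ± 0.15 and 1.77-fold, with 0.82 on both slides (adjusted p = 0.0848). Lipe, the hormone-sensitive lipase that acts after it, differed by 0.41 ± 0.28 with TSA and −0.44 ± 0.34 in MuSC, neither called.

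None of the 5 products of mature fat cells was called with TSA. The chosen probes of Retn, Lep and Car3, a carbonic anhydrase shared by fat and slow muscle, were well above background on all 5 arrays. Those of Adipoq and Cfd were not. Adipoq, which encodes the hormone adiponectin, stood at −5.19 and −3.91 with vehicle, −3.49 and −3.57 with TSA and −6.15 in MuSC (probe at chr16:23157576-23157635, mm9). It was well above background on 1 of 2 vehicle arrays and 2 of 2 TSA arrays, and not on the MuSC array. The TSA difference of 1.02 ± 0.46 (adjusted p = 0.268 in limma) was 1.69 on slide 1 and 0.35 on slide 2. The MuSC difference of −1.60 ± 0.56 (adjusted p = 0.124) sets a value below background against vehicle arrays of which 1 was measured, and it was −2.24 without vehicle replicate 1 (adjusted p = 0.0229) and −0.97 without vehicle replicate 2 (adjusted p = 0.0874).

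Cfd encodes adipsin, a complement protease secreted by fat cells. Its level was −3.48 and −3.46 with vehicle, −3.45 and −4.45 with TSA and −5.80 in MuSC, where it was not well above background. TSA arrays overlapped the vehicle arrays (−0.48 ± 0.37, adjusted p = 0.461 in limma), and MuSC were at least 2.35-fold lower (fitted −2.33 ± 0.45, adjusted p = 0.0314). That call failed in 4 of 11 alternatives, with an adjusted p of up to 0.253. Retn, which encodes resistin, stood at −1.98 and −2.31 with vehicle, −2.77 and −2.76 with TSA and −4.36 in MuSC (probe at chr8:3659757-3659816, mm9). MuSC were lowest, by −2.21 ± 0.22, or 4.64-fold (adjusted p = 0.0065), and the TSA difference was −0.62 ± 0.18 (adjusted p = 0.165). The chosen Retn probe is annotated to an Ensembl transcript. A second Retn probe, annotated to a RefSeq transcript, was at background level throughout. With the mean of both probes the MuSC difference was −1.48 (adjusted p = 0.0667 in limma). Lep, the hormone leptin, was read on 9 or 10 spots per array, after outlier spots were left out, whose SD was 0.197 to 0.517. It differed by −0.94 ± 0.48 with TSA and −0.36 ± 0.59 in MuSC, and Car3 by 0.51 ± 0.33 and 0.65 ± 0.40, with no call. The median of the 5 was −0.48 with TSA.

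**Figure D4:**
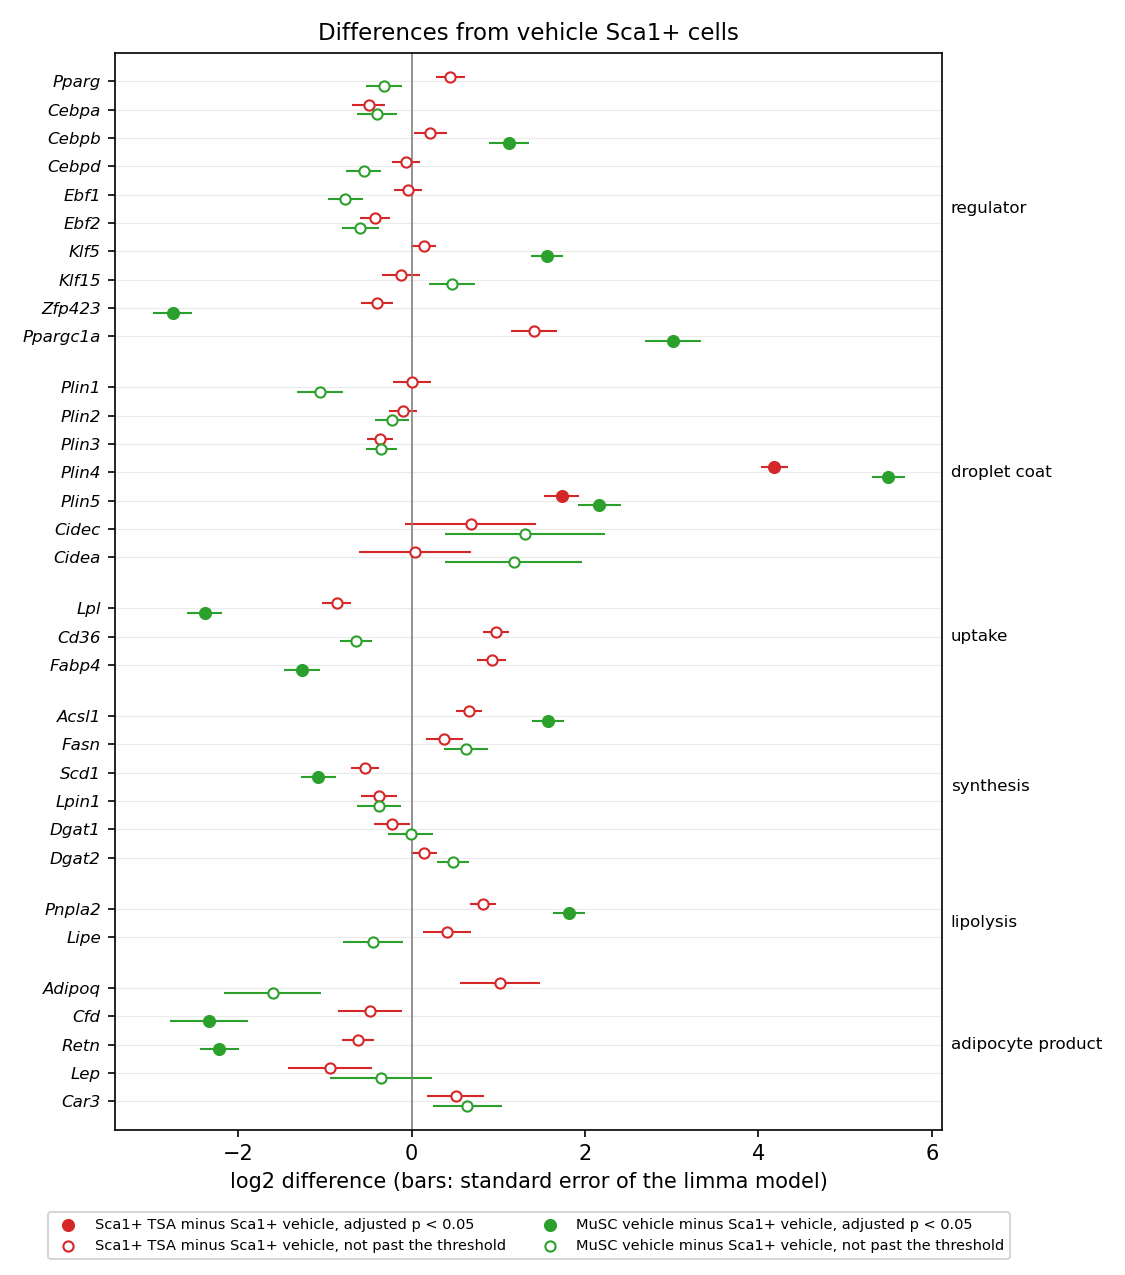
Log2 difference of TSA Sca1+ cells and of MuSC from vehicle Sca1+ cells for the 33 genes by role, with bars for the standard error of the limma model and filled points for an adjusted p under 0.05. The filled TSA points are Plin4 at 4.18 and Plin5 at 1.73, and the filled MuSC points run from Zfp423 at −2.75 to Plin4 at 5.50.

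A further 66 genes of adipogenesis and lipid handling were listed, of which 64 were tested. Ucp1 and Elovl3, of brown fat, were at background level on all 5 arrays. With TSA 4 of the 64 were called higher and 1 lower, with a median of 0.04, where 2.71% and 0.268% of all genes were called. Slc2a4 encodes GLUT4, the insulin-regulated glucose transporter of muscle and fat. Its level was −0.91 and −1.14 with vehicle, 2.83 and 2.95 with TSA and 4.49 in MuSC. The groups did not overlap, and with TSA it was higher by 3.92 ± 0.17, or 15.1-fold (adjusted p = 0.0044 in limma). Fitm1, a droplet-forming protein of skeletal muscle, was at least 3.61-fold higher (fitted 3.40 ± 0.38, adjusted p = 0.0293 in limma). Its vehicle signal was not well above background on either array (−6.57 and −5.58). Like Plin5, Fitm1 passed the filter only through groups in which it was bright, and its TSA difference was 0.17 (adjusted p = 0.603) with normexp and missed the threshold without the filter (adjusted p = 0.0793). Prdm16, a regulator of brown fat fate, was higher by 1.72 ± 0.17 (adjusted p = 0.0218 in limma). Cox7a1, a cytochrome oxidase subunit of heart and skeletal muscle that also marks brown fat, was 2.82-fold higher (adjusted p = 0.0262). G0s2, which inhibits the lipase ATGL encoded by Pnpla2, was the only call downward, from 1.33 and 1.43 with vehicle to 0.29 and 0.32 with TSA. Its difference was −1.08 ± 0.15 (adjusted p = 0.0484). Without TSA replicate 1 or TSA replicate 2 these calls were lost, as were calls over the whole array. The differences were then 3.98 and 3.85 for Slc2a4, 3.29 and 3.52 for Fitm1, and 1.80 and 1.64 for Prdm16. They were 1.42 and 1.58 for Cox7a1, and −1.06 and −1.09 for G0s2. Calls of Prdm16, Cox7a1 and G0s2 were also lost without either vehicle replicate, where fewer genes passed over the whole array too. Without the filter these 3 were not called either (adjusted p from 0.0742 to 0.150 in limma), where all genes gave 280 higher and 3 lower.

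In MuSC 10 of the 64 were called higher and 11 lower, with a median of −0.22, where 10.5% and 11.7% of all genes were called. The largest upward were Fitm1, at least 64.5-fold, Slc2a4, by 5.52 ± 0.21 or 45.9-fold, and Cox7a1, by 3.14 ± 0.19 or 8.79-fold (adjusted p = 0.0022, 0.0015 and 0.0022 in limma). The largest downward was Rbp4, which encodes the retinol carrier of plasma, at 3.37 and 3.23 with vehicle, 3.28 and 3.36 with TSA and −2.33 in MuSC. Sca1+ arrays lay together and MuSC 49.8-fold lower (−5.64 ± 0.19, adjusted p = 0.0014). Gpihbp1, the endothelial anchor of lipoprotein lipase, was 7.42-fold lower (−2.89 ± 0.20, adjusted p = 0.0028), and Wnt10b, an inhibitor of adipogenesis, at least 4.52-fold lower (fitted −2.58 ± 0.31, adjusted p = 0.0093). With normexp Wnt10b differed by −0.64 (adjusted p = 0.110).

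Plin4, Plin5, Slc2a4, Fitm1 and Cox7a1 are also expressed by muscle fibres, and the myofibre, satellite cell and smooth muscle marker sums given above were higher in TSA Sca1+ cells and in MuSC than in vehicle Sca1+ cells. In MuSC these sums were 68.5, 253 and 1540. The mast cell and red cell sums were also higher in TSA Sca1+ cells than with vehicle, but lower in MuSC. Prdm16, higher, and G0s2, lower, were called with TSA as well. Which cells these differences come from was not tested.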

How the data were processed

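Labelled RNA from 5 sorted samples was hybridised to 1-colour Agilent arrays on 2 slides, replicate 1 of each group on slide 1. Per the file headers, the authors extracted spot intensities with Agilent Feature Extraction 10.7.3.1, which subtracts background, with probe positions in mm9. The authors also deposited a table of log2 values. Set against the scanner values, each of its columns keeps the order of the spots, has a median of 4.67 and, once sorted, matches the others within 0.00101, the form that quantile normalization gives. How it was made is not given in the sources used here. It served as an alternative.

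Values here are log2 of the processed intensity minus each array's 75th percentile over 59305 non-control spots. Outlier spots (0.196% to 0.334%) were left out and spots of 1 probe averaged. The files of slide 2 carry no gene names, so names came from slide 1 through identical probe identifiers, and 26413 of 55681 probes were updated by accession through a RefSeq table. Of several probes for a gene the brightest was taken, for 7 of the 33 genes. Features were tested if marked as well above background by all arrays of 1 group or more. With 27 of the 33 above background on all 5 arrays, dim genes have less certain values, and the number of arrays limits precision.

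The tests are two-sided limma tests (version 3.58.1 under R 4.3.3, functions lmFit and eBayes), adjusted over all features by Benjamini-Hochberg at 0.05, with 2 residual and 2.30 prior degrees of freedom. The code was tested on simulated data. The genes and lists were chosen with earlier results of these data known. Full values are given for called genes and for Pparg, Cebpa, Fabp4, Adipoq, Plin1, Plin2, Lpl and Cd36, for the 3 largest calls per direction among the other lipid genes, and for the first marker of a list. Itga7, Ly6a, Cd34, Lrg1 and Cox7a1 were added after their values were seen where this rule does not name them. Alternatives changed the background correction, scaling, source table, filter, probe rule, slide block, prior and arrays. Replicate numbers coincide with slides. Deviations of same-numbered arrays correlated at 0.348 over 2 pairs, too few to settle pairing.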

Additional observations from a re-analysis of the deposited data

How the results depend on the processing

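The TSA count of 2 genes higher among the 33 became 5 with normexp background correction (offset 50, on median signals, chosen after seeing the data because the files of slide 2 hold no mean signal, so that the planned version on mean signals was not run), 4 with quantile normalization, 4 with the deposited table, 1 without the filter and 6 with a trend in the prior variance. It ranged from 0 to 1 without any 1 replicate. The count of 0 lower became 6 with normexp and 1 with the trend, and the median of 0.04 became −0.16 with normexp. Over all genes, normexp called 1258 higher and 5895 lower with a median of −0.25, against 708 and 70 with −0.13. The counts were 280 and 3 without the filter, 1198 and 475 with the trend, 319 and 2 or 256 and 2 without vehicle replicate 1 or 2, and 0 and 0 without either TSA replicate. The Plin4 difference with TSA stayed between 3.04 and 4.26 and was called in 10 of 12 alternatives. In MuSC the 6 genes lower became 3 without the filter and ranged from 3 to 4 without 1 replicate. Calls of Klf5, Zfp423, Ppargc1a, Plin4, Lpl, Acsl1 and Pnpla2 in MuSC held in 11 of 11 alternatives. Cebpb, Fabp4, Scd1 and Cfd were not called there without the filter (adjusted p from 0.0583 to 0.0913), where all genes gave 1571 higher and 1808 lower in place of 2735 and 3045.

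Among TSA differences, signs turned with normexp for Cebpd (0.16), Ebf1 (0.055), Plin1 (−0.54), Plin5 (−0.40), Cidec (−0.59), Cidea (−0.58), Fasn (−0.16), Lipe (−0.066) and Adipoq (−0.33), with quantile normalization for Cebpd (0.089), and with the deposited table for Cebpd (0.11) and Ebf1 (0.022). Without 1 replicate the sign depended on the array left out for Cebpd (−0.18 to 0.055), Ebf1 (−0.13 to 0.054), Klf15 (−0.33 to 0.097), Plin1 (−0.23 to 0.25), Plin2 (−0.20 to 0.0024), Cidec (−0.41 to 1.77), Cidea (−0.87 to 0.95) and Cfd (−0.98 to 0.019). Of the turned values, Cidec and Cidea with normexp passed as lower (adjusted p = 0.0438 and 0.0458 in limma), while the turned Plin5 value did not (0.166). In MuSC, Cidec became −0.011 with normexp, Dgat1 0.014 with the deposited table and −0.23 to 0.22 without 1 replicate, and Lpin1 0.061 with the mean of probes. The cause was not tested.

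With slide as a replicate block, the TSA counts were 3 higher (Ppargc1a joined) and 0 lower, and the MuSC counts 7 and 6, with no other call changed among the 33. Over all genes the block gave 932 higher and 166 lower with TSA. A fit on the 4 Sca1+ arrays alone gave the same TSA values, as 1 MuSC array adds no residual degree of freedom. Dim probes limit Plin5, Plin1, Cidec, Cidea, Adipoq and Cfd.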
